A study of Mus musculus with 64 samples.

Results

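The transcripts described here are those of 9 dual-specificity phosphatase genes (Dusp1, Dusp2, Dusp4, Dusp5, Dusp6, Dusp8, Dusp10, Dusp14 and Dusp16), taken by symbol from the 55487 genes of the count tables. All 9 were among the 14537 genes kept for testing. They were measured by mRNA sequencing in 64 libraries of murine bone marrow-derived macrophages (BMMs), 4 libraries in each of 16 groups. BMMs came from 4 Ahr+/+ female C57BL/6JRj mice and 4 Ahr-/- mice that had been crossed back to that strain, all aged 8 to 12 weeks, the latter lacking the aryl hydrocarbon receptor (AhR), a transcription factor that is switched on by small molecules, in every cell of the body. Cultures held more than 80% of cells with the macrophage antigens CD11b and F4/80. After differentiation for 6 days in medium with 30% L929 supernatant, all cultures received 0.01% DMSO, 1 µM benzo[a]pyrene (BaP, a combustion product and AhR ligand) or 10 µM indole-3-carbinol (I3C, a plant-derived AhR ligand) for 6 h. Killed bacteria of Salmonella Enteritidis (hk S.E., where hk stands for heat-killed) at 10000000 per ml, a source of bacterial pattern molecules, were then given for 3 h or 20 h. In each genotype and at each time, 3 groups were thus activated after DMSO, BaP or I3C, and 1 group had DMSO alone and is called unactivated. BaP and I3C without hk S.E. were not among the groups, so ligand effects refer to activated cells only. The labels number the libraries of a group from 1 to 4 without naming the mouse, and p values measure the spread between these libraries.

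Dual-specificity MAP kinase phosphatases remove the phosphates that switch MAP kinases on, from both the threonine and the tyrosine of the activation loop. They are the main brake on ERK, JNK and p38 signalling, and in macrophages that sense bacterial products through Toll-like receptors they limit how long cytokine genes are driven. Dusp1, Dusp2, Dusp4 and Dusp5 encode nuclear enzymes whose genes are themselves inducible. Dusp6 encodes the cytoplasmic phosphatase of ERK. Dusp8, Dusp10 and Dusp16 encode enzymes that prefer JNK and p38. Dusp14 encodes a small enzyme of the atypical class, without the kinase-binding domain of the others. What was counted here is the transcript, and neither protein nor phosphatase activity was measured. In bulk RNA, fewer cells of a type and less RNA per cell cannot be told apart.

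The upstream sequences of 4 of the genes are shown because these 4 carry the results below: Dusp2 and Dusp16 with the largest rises, and Dusp1 and Dusp5 with the differences between genotypes. They were taken from RefSeq on GRCm38.p6, for which 8 of the 9 genes matched and Dusp4 did not. Each reads 5′ to 3′ towards the RefSeq transcription start, ends at the start or where an annotated exon begins, and has in capitals every match to 1 of 5 motifs searched on both strands: the AhR response element AHRE I (GCGTG), the cyclic AMP response element CRE (TGACGTCA), AP-1 (TGANTCA), the NF-kB motif and the CArG box of serum response factor. The Dusp1 stretch lies at chr17:26508520-26508722 (- strand), the Dusp2 stretch at chr2:127335909-127336158 (+ strand), the Dusp5 stretch at chr19:53528895-53529108 (+ strand) and the Dusp16 stretch at chr6:134792629-134792878 (- strand).
Dusp1: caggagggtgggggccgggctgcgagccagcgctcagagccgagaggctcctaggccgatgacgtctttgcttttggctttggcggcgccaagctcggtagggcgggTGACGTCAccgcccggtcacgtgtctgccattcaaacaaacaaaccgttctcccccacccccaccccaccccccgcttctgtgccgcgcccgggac
Dusp2: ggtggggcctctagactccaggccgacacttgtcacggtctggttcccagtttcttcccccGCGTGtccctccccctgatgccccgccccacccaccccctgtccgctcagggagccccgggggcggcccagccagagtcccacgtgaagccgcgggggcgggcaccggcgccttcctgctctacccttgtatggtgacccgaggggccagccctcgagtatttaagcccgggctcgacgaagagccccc
Dusp5: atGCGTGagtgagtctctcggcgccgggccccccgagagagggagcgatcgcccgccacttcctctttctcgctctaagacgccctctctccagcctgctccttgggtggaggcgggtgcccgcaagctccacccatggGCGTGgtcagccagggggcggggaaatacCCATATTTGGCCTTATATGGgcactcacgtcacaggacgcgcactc
Dusp16: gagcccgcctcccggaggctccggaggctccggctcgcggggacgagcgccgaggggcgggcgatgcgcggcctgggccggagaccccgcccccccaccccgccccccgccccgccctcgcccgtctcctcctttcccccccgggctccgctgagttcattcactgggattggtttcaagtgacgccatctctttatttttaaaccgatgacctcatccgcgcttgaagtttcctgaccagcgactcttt

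Within 250 bases upstream of the start, the CRE occurred once in Dusp1 and at 2 places in Dusp8, against 1.55% of all 32851 windows of that length. A pair of adjacent CArG boxes stood in Dusp5, where 1.47% of all windows held at least 1. The AHRE I core was found in Dusp2, Dusp5, Dusp8 and Dusp14, 4 of the 8 genes, and in 28.2% of all windows. No match to AP-1 (6.75% of all windows) or NF-kB (7.25%) was present in any of the 8, which says only that these letters are not in this short window. The Dusp16 window held none of the 5 motifs. These matches are letters in a sequence, and binding was not measured.

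Libraries held 12152496 to 50644601 counts on genes, apart from library 4 of the unactivated Ahr+/+ group at 20 h with 233047331. Values below are CPM, counts scaled to the library total and by TMM, a normalization across libraries, and each level is given as mean ± SD with n = 4. Adjusted p values come from quasi-likelihood tests in edgeR, with Benjamini-Hochberg adjustment over all 14537 genes, log2 fold changes carry their standard error (SE), and a gene is called changed at an adjusted p below 0.01. The 8 macrophage markers were present in every library, at 18609 to 35732 CPM in sum, while Cd3d, Cd3e and Cd3g of T cells were at 0 in 49 to 55 of the 64 libraries. Reads on Ahr were found in both genotypes, with group means of 3.17 to 13.03 CPM in Ahr+/+ and 6.63 to 24.8 CPM in Ahr-/- BMMs, so the total count of this gene does not check the deletion. Ahrr, the AhR repressor and a known AhR target, stood at 5.37 ± 1.20 CPM after BaP against 0.514 ± 0.112 after DMSO in activated Ahr+/+ BMMs at 3 h, and at 0.184 ± 0.127 against 0.235 ± 0.0839 in Ahr-/- BMMs.

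Scaled to exon length, so that genes can be compared, the unactivated Ahr+/+ BMMs at 3 h held mostly Dusp1, at 21.1 ± 2.30 CPM per kb. Dusp6 at 8.87 ± 1.40, Dusp5 at 8.30 ± 1.78 and Dusp4 at 6.98 ± 0.790 CPM per kb followed, and these 3 levels lay within a narrow range. Dusp16 stood at 1.70 ± 0.114, Dusp2 at 1.13 ± 0.160 and the remaining Dusp10, Dusp14 and Dusp8 at 0.483 ± 0.118, 0.190 ± 0.119 and 0.149 ± 0.0620 CPM per kb. After 3 h of hk S.E. the order was another: Dusp2 led at 121 ± 13.6 CPM per kb, ahead of Dusp1 at 45.8 ± 8.20 and Dusp16 at 18.4 ± 2.03. At 20 h Dusp1 led again in Ahr+/+ BMMs with 44.9 ± 11.2, followed by Dusp16 with 17.3 ± 2.49 and Dusp4 with 15.3 ± 2.75 CPM per kb. In activated Ahr-/- BMMs at 20 h Dusp16 had the highest mean, with 20.95 ± 0.981, Dusp4 with 17.3 ± 4.11 overlapped it, and Dusp1 with 14.6 ± 3.05 CPM per kb lay below all Dusp16 values.

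**Figure D1:**
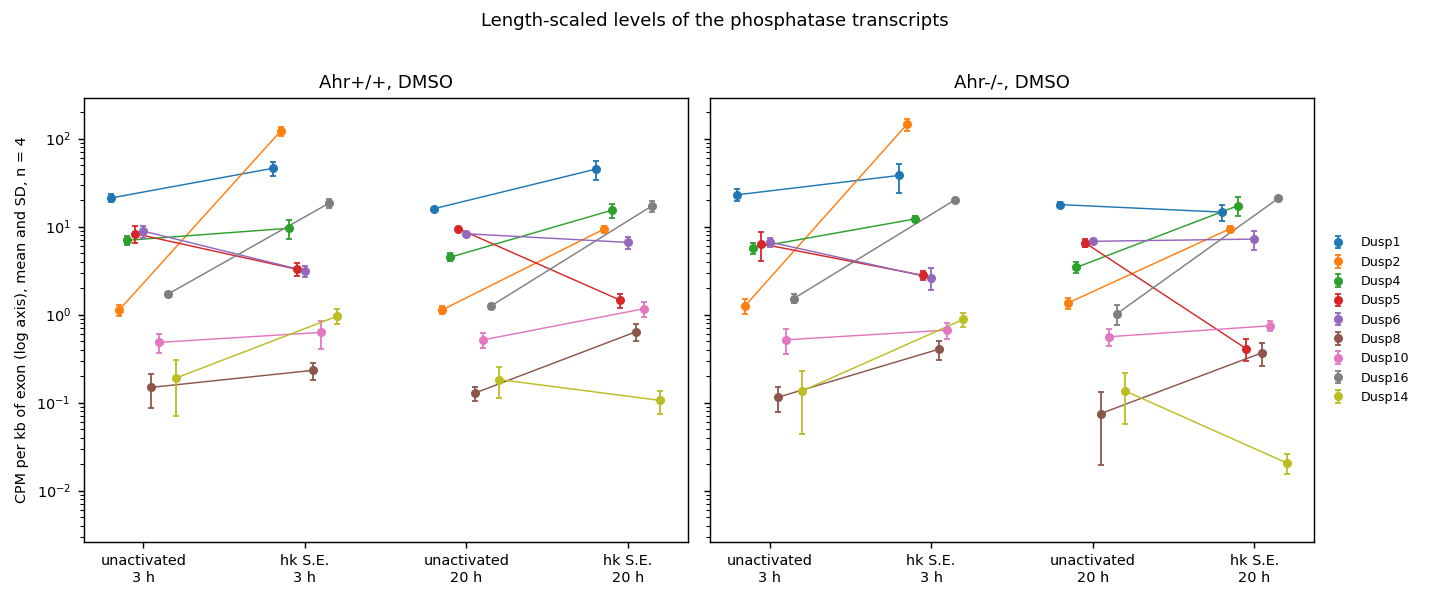
CPM per kb of exon (log axis) of the 9 transcripts in the DMSO groups of Ahr+/+ (left) and Ahr-/- BMMs (right), as means with SD of 4 libraries, with lines joining unactivated and hk S.E.-activated cells of the same time. Dusp2 rises from 1.13 to 121 CPM per kb within 3 h in Ahr+/+ BMMs, and the line of Dusp1 at 20 h runs up on the left and slightly down on the right.

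Dusp2 (ENSMUSG00000027368.6, chr2:127336159-127338376, + strand), an inducible nuclear phosphatase of activated leukocytes, had the largest response of the family. In Ahr+/+ BMMs at 3 h the 4 unactivated libraries held 2.14, 2.68, 1.92 and 2.28 CPM and the 4 activated ones 219, 274, 257 and 222 CPM. No unactivated library came near the lowest activated one, and the rise was 106-fold (log2 fold change 6.73 ± 0.16, edgeR adjusted p = 1.22e-39). Without AhR the level went from 2.53 ± 0.509 to 289 ± 47.97 CPM, 114-fold (log2 6.83 ± 0.16, edgeR adjusted p = 4.05e-40). By 20 h most of this had gone, since the activated libraries then held 16.6, 20.5, 19.7 and 17.9 CPM in Ahr+/+ and 20.5, 19.3, 19.1 and 16.8 CPM in Ahr-/- BMMs. These levels were 12.99 and 15.3 times below those at 3 h, yet still 8.14 and 7.06 times above the unactivated cells of the same time (log2 3.03 ± 0.14 and 2.82 ± 0.14, edgeR adjusted p = 1.31e-26 and 4.63e-25). The unactivated level was much the same at both times, at 2.26 ± 0.320 and 2.27 ± 0.219 CPM in Ahr+/+ BMMs.

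Dusp1 (ENSMUSG00000024190.7, chr17:26505590-26562128, - strand), the nuclear phosphatase best known for restraining p38 and JNK after Toll-like receptor signals, was already abundant in unactivated cells. Its Ahr+/+ libraries at 3 h held 58.6, 74.1, 72.3 and 74.6 CPM unactivated and 145, 192, 139 and 132 CPM activated, without overlap (log2 fold change 1.12 ± 0.24, edgeR adjusted p = 6.18e-05). At 20 h they held 53.3, 52.4, 56.0 and 49.8 and 185, 175, 109 and 126 CPM, again without overlap (log2 1.49 ± 0.24, edgeR adjusted p = 3.55e-07). In Ahr+/+ BMMs the activated Dusp1 level at 20 h was not called different from that at 3 h, with a difference of -0.03 ± 0.24 on the log2 scale and a 95% interval of -0.51 to 0.45. At 3 h the unactivated Ahr-/- libraries held 73.0, 93.3, 67.7 and 69.8 CPM and the activated ones 165, 165, 89.2 and 83.9 CPM. Libraries 1 and 2 were high, while libraries 3 and 4 reached no further than the unactivated range. The mean rise was 1.66-fold (log2 0.73 ± 0.24, edgeR adjusted p = 0.00662), and without activated library 1 or 2, or unactivated library 1, 3 or 4, it was no longer called, with adjusted p from 0.0169 to 0.0299 and log2 fold changes of 0.62 to 0.71, nor in a fit of the 2 groups alone (adjusted p = 0.0119). At 20 h the activated Ahr-/- libraries held 46.7, 38.4, 62.4 and 45.7 CPM, against 61.9, 53.9, 59.4 and 59.9 CPM in the unactivated ones. The groups overlapped and no change was called (log2 -0.28 ± 0.24, edgeR adjusted p = 0.307).

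**Figure D2:**
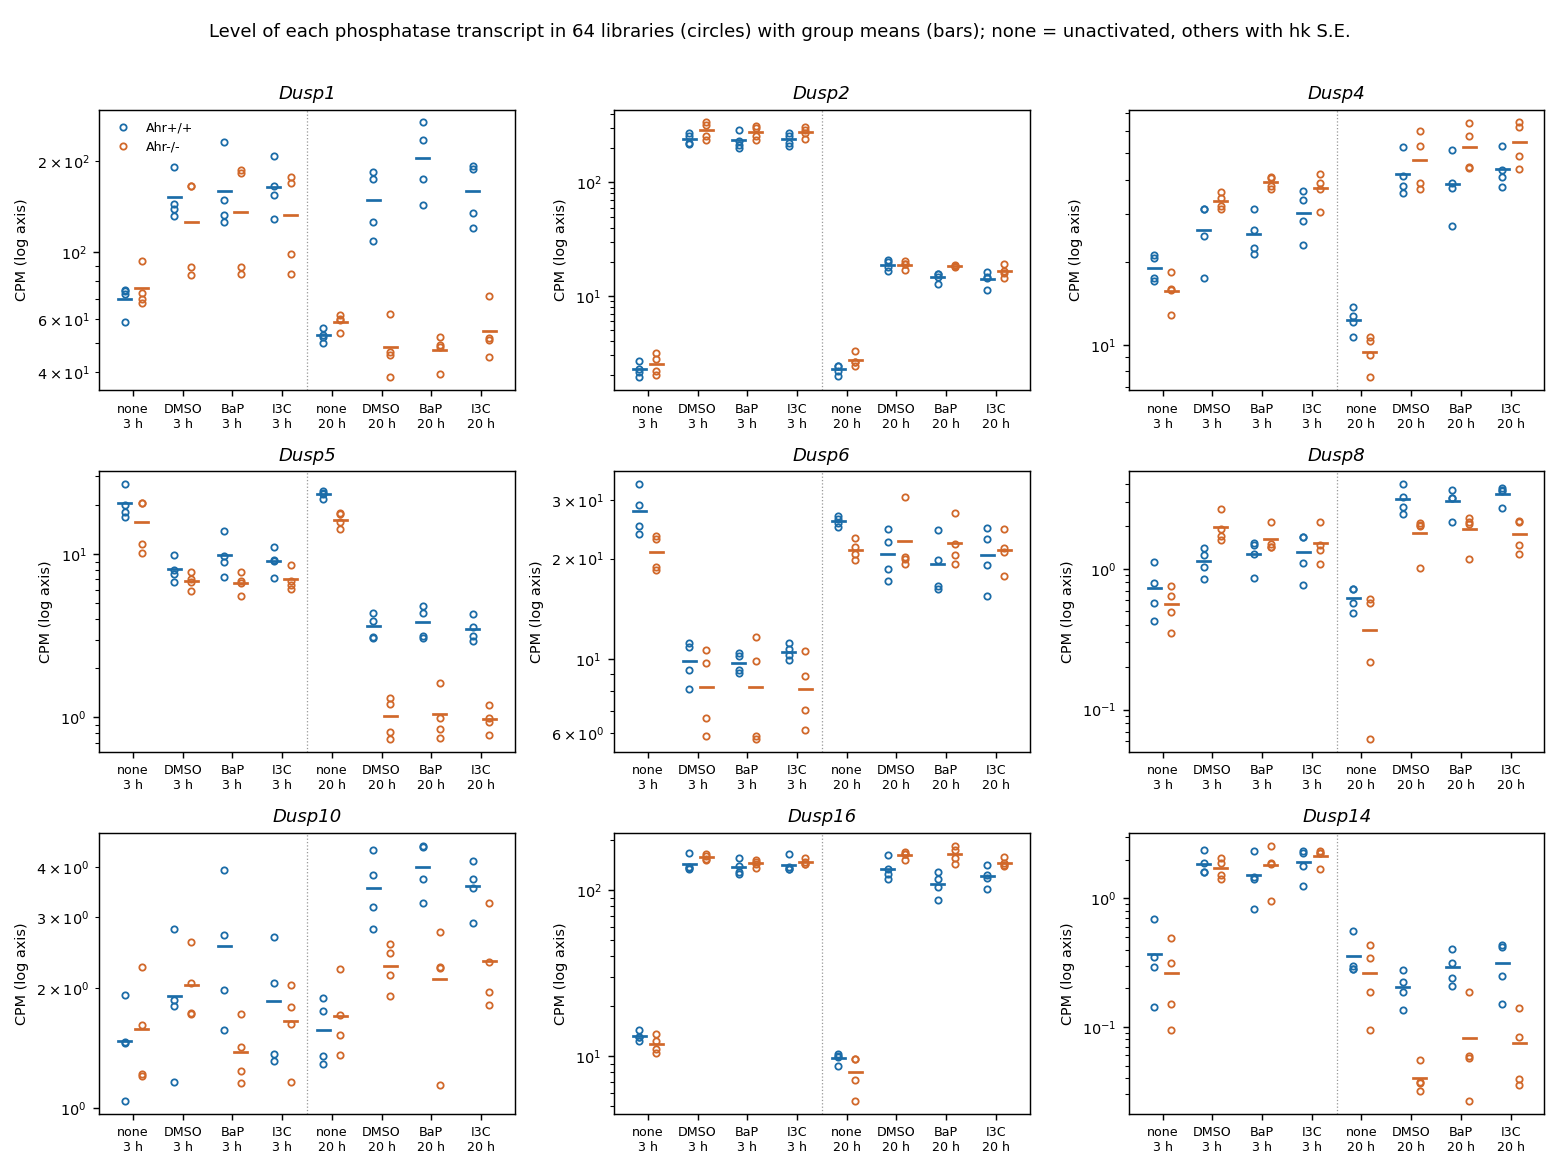
CPM (log axis) of each of the 9 transcripts in all 64 libraries (circles) with group means (bars), ordered by time and treatment, in Ahr+/+ (blue) and Ahr-/- BMMs (orange). The Dusp1 panel shows all 12 activated Ahr-/- libraries at 20 h below all 12 activated Ahr+/+ libraries, and libraries of the activated Ahr-/- groups at 3 h in a high and a low pair.

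Dusp4 (ENSMUSG00000031530.6, chr8:34807297-34819894, + strand), a nuclear phosphatase of ERK and JNK, was highest in activated cells at 20 h. At 3 h the activated Ahr+/+ libraries held 31.2, 17.6, 31.2 and 24.8 CPM, overlapping the unactivated 17.5, 17.01, 21.2 and 20.8 CPM, and the difference was not called (log2 0.45 ± 0.17, edgeR adjusted p = 0.0203). Activated library 2 was the lowest of its group, and without it the log2 fold change was 0.65 with an edgeR adjusted p of 0.00146. With all libraries kept it was called by DESeq2, with RLE scaling, in a fit of the 2 groups alone and with the library number as a block (adjusted p = 0.00772, 0.00811, 0.00827 and 0.00136), so that the call depended on the fit as well as on 1 library. Dusp4 in Ahr-/- BMMs went from 15.7 ± 2.28 to 33.4 ± 2.24 CPM at 3 h (log2 1.09 ± 0.17, edgeR adjusted p = 2.18e-07). At 20 h the activated groups reached 42.0 ± 7.54 CPM in Ahr+/+ and 47.3 ± 11.3 CPM in Ahr-/- BMMs, 3.41 and 4.98 times the unactivated cells (log2 1.77 ± 0.17 and 2.32 ± 0.18, edgeR adjusted p = 3.1e-13 and 5.42e-17).

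Dusp5 (ENSMUSG00000034765.6, chr19:53529109-53542431, + strand), a nuclear phosphatase specific for ERK, was the family member that fell throughout. In Ahr+/+ BMMs the unactivated libraries held 18.2, 26.8, 16.97 and 20.1 CPM at 3 h and the activated ones 7.59, 9.95, 8.03 and 6.79 CPM. At 20 h they held 23.4, 23.8, 24.5 and 21.9 CPM unactivated and 3.10, 3.89, 3.08 and 4.39 CPM activated. The 2 groups did not overlap at either time, and Dusp5 decreased 2.54-fold at 3 h and 6.42-fold at 20 h (log2 -1.34 ± 0.20 and -2.68 ± 0.20, edgeR adjusted p = 3.79e-08 and 2.93e-17). The Ahr-/- libraries at 20 h held 17.8, 15.6, 17.6 and 14.2 CPM unactivated and only 1.20, 1.31, 0.736 and 0.810 CPM activated, 16.2-fold lower (log2 -4.02 ± 0.23, edgeR adjusted p = 3.69e-22). At 3 h the Ahr-/- decrease was 2.27-fold (log2 -1.19 ± 0.20, edgeR adjusted p = 5.95e-07).

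Dusp6 (ENSMUSG00000019960.8, chr10:99263231-99267489, + strand), the cytoplasmic ERK phosphatase, fell at 3 h in both genotypes. The Ahr+/+ libraries at 3 h held 23.7, 33.4, 25.1 and 28.9 CPM unactivated and 10.8, 8.14, 11.1 and 9.25 CPM activated, a 2.83-fold decrease (log2 -1.50 ± 0.18, edgeR adjusted p = 2.91e-10). The decrease in Ahr-/- BMMs was 2.54-fold, from 20.9 ± 2.57 to 8.21 ± 2.31 CPM (log2 -1.35 ± 0.18, edgeR adjusted p = 5.52e-09). At 20 h the activated groups stood at 20.7 ± 3.42 and 22.6 ± 5.44 CPM. Neither was called different from unactivated cells (log2 -0.33 ± 0.17 and 0.08 ± 0.17, edgeR adjusted p = 0.0877 and 0.713), with 95% intervals of -0.67 to 0.02 in Ahr+/+ and -0.27 to 0.43 in Ahr-/- BMMs. In a fit of the 2 groups alone the Ahr+/+ difference was called (log2 -0.36, edgeR adjusted p = 0.00797).

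Among the phosphatases of JNK and p38, Dusp16 (ENSMUSG00000030203.17, chr6:134715468-134792625, - strand) rose most and stayed up. Its Ahr+/+ libraries at 3 h held 13.1, 13.1, 12.3 and 14.5 CPM unactivated and 138, 168, 136 and 134 CPM activated, 10.9-fold higher (log2 3.44 ± 0.13, edgeR adjusted p = 4.65e-31). At 20 h the activated libraries still held 117, 162, 126 and 134 CPM in Ahr+/+ and 171, 153, 165 and 166 CPM in Ahr-/- BMMs. Between 3 h and 20 h of activation the log2 difference was -0.10 ± 0.11 in Ahr+/+ and 0.05 ± 0.11 in Ahr-/- BMMs, with 95% intervals of -0.32 to 0.13 and -0.17 to 0.28. Over unactivated cells the rise at 20 h was 13.8-fold in Ahr+/+ and 20.1-fold in Ahr-/- BMMs (log2 3.79 ± 0.13 and 4.33 ± 0.13, edgeR adjusted p = 1.15e-32 and 1.57e-34). At 3 h in Ahr-/- BMMs it was 13.3-fold (log2 3.73 ± 0.13, edgeR adjusted p = 1.86e-32).

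Dusp8 (ENSMUSG00000037887.11, chr7:142079490-142095843, - strand) and Dusp10 (ENSMUSG00000039384.8, chr1:184013302-184075636, + strand), of the same substrate class, were the low members. Dusp8 rested on 1 to 212 counts per library. Its Ahr+/+ level went from 0.726 ± 0.302 to 1.13 ± 0.244 CPM at 3 h, which was not called (log2 0.68 ± 0.34, edgeR adjusted p = 0.0794), and from 0.623 ± 0.115 to 3.11 ± 0.661 CPM at 20 h (log2 2.28 ± 0.29, edgeR adjusted p = 6.13e-10). Dusp8 rose in Ahr-/- BMMs at both times, by 1.82 ± 0.32 and 2.105 ± 0.31 on the log2 scale (edgeR adjusted p = 1.58e-06 and 4.71e-08). Dusp10 rose in activated Ahr+/+ BMMs at 20 h, where the libraries held 3.82, 3.18, 2.80 and 4.41 CPM against 1.88, 1.29, 1.35 and 1.75 CPM (log2 1.17 ± 0.24, edgeR adjusted p = 2.6e-05). In the other 3 activation comparisons Dusp10 differed by 0.37 to 0.40 on the log2 scale and was not called, with edgeR adjusted p from 0.148 to 0.234.

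Dusp14 (ENSMUSG00000018648.15, chr11:84048041-84069261, - strand), the atypical enzyme, was the least counted member, with 1 to 89 counts per library, and its direction turned with time. At 3 h the Ahr+/+ libraries held 0.292, 0.351, 0.690 and 0.142 CPM unactivated and 1.62, 2.38, 1.59 and 1.88 CPM activated (log2 2.34 ± 0.38, edgeR adjusted p = 3.4e-07), and in Ahr-/- BMMs the rise was 6.69-fold (log2 2.74 ± 0.39, edgeR adjusted p = 1.61e-08). At 20 h activated Ahr+/+ libraries held 0.135, 0.224, 0.189 and 0.277 CPM, below the unactivated 0.558, 0.283, 0.284 and 0.300 CPM without overlap, but the difference was not called (log2 -0.67 ± 0.42, edgeR adjusted p = 0.153). In activated Ahr-/- BMMs at 20 h the libraries had 1, 1, 1 and 3 counts, against 14, 3, 15 and 5 in the unactivated group (log2 -2.52 ± 0.58, edgeR adjusted p = 0.000172). These groups alone would not have passed the filter on low counts, so Dusp14 was tested here through its counts in other groups. With so few counts the fitted value depends on the fit, and the ratio of summed counts scaled to library size, activated over unactivated, was 0.168 with an exact 95% Poisson interval of 0.0578 to 0.401, which covers counting error only.

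In counts, hk S.E. changed 6 of the 9 transcripts in Ahr+/+ BMMs at 3 h (4 higher, 2 lower), where 56.6% of all genes tested (24.2% higher, 32.3% lower) were called. At 20 h it changed 7 (6 higher, 1 lower), against 58.6% of all genes tested (29.9% higher, 28.7% lower). Without AhR 8 were called at 3 h (6 higher, 2 lower), against 57.3% of all genes tested (25.5% higher, 31.8% lower), and 6 at 20 h (4 higher, 2 lower), against 54.3% of all genes tested (28.3% higher, 26.0% lower). Since more genes were called than not, a call says little by itself, and the sizes carry the description. Whether the 9 exceeded the shares of all genes was not tested. The median log2 fold change over the 9 was 0.68 at 3 h and 1.49 at 20 h in Ahr+/+ BMMs, beside -0.10 and 0.00 over all genes tested. In Ahr-/- BMMs it was 1.09 at 3 h and 0.40 at 20 h, beside -0.08 and 0.02 over all genes tested. Each median is the middle value of 9 unlike transcripts, and differences between the medians were not tested. Dusp2 and Dusp16 rose and Dusp5 fell in all 4 activation comparisons. The neutrophil marker list moved along with activation at 3 h, from 14.6 to 37.3 CPM in sum in unactivated Ahr+/+ libraries to 104 to 238 CPM in activated ones, through S100a8, S100a9 and Ngp, while Ly6g, Mpo and Elane were at 0 in 35, 44 and 41 of the 64 libraries. Its part in the results was not tested.

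**Figure D3:**
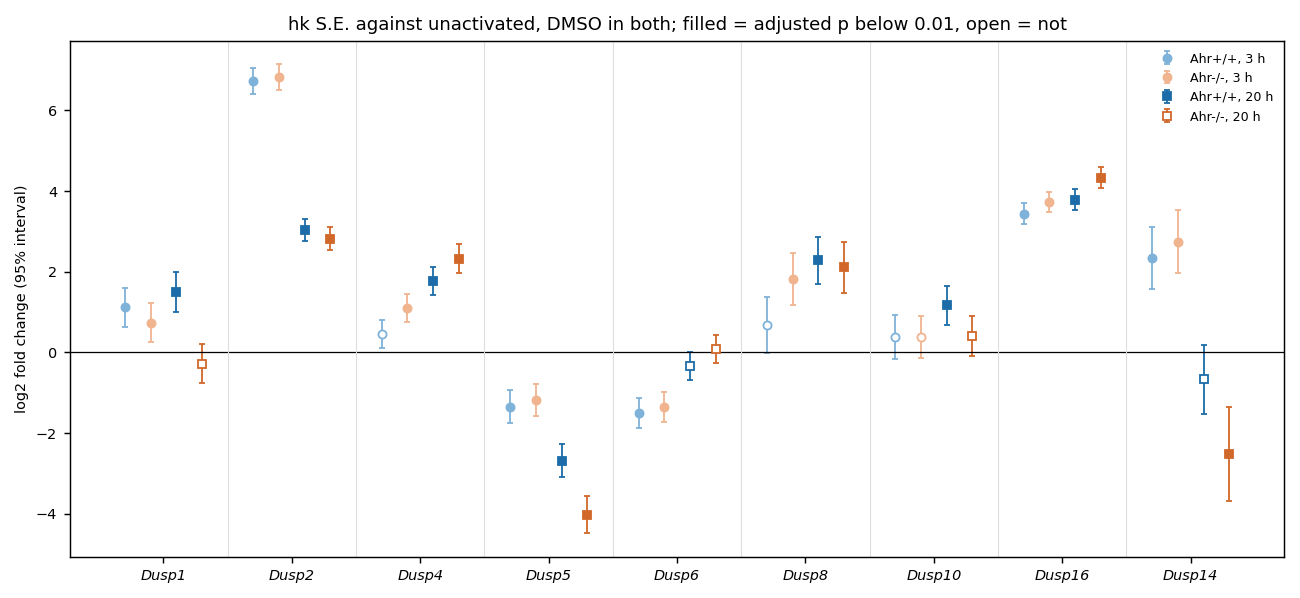
Log2 fold change of hk S.E.-activated against unactivated BMMs for the 9 transcripts, with 95% intervals, in Ahr+/+ (blue) and Ahr-/- (orange) at 3 h (pale circles) and 20 h (dark squares). Filled symbols passed an adjusted p below 0.01. Dusp2 stands at 6.73 and 6.83 at 3 h, and the squares of Dusp1 lie on opposite sides of 0.

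Whether the response itself differed between 3 h and 20 h was tested as the change at 20 h less that at 3 h. In Ahr+/+ BMMs 6 of the 9 differed (3 upwards, 3 downwards), as did 47.8% of all genes tested (26.5% higher, 21.3% lower), and in Ahr-/- BMMs 7 (3 upwards, 4 downwards), as did 44.7% of all genes tested (25.2% higher, 19.4% lower). Dusp2, Dusp5 and Dusp14 had a lower response at 20 h in both genotypes. In Ahr+/+ BMMs their log2 differences were -3.70 ± 0.20, -1.34 ± 0.28 and -3.02 ± 0.57 (edgeR adjusted p = 4.66e-23, 4.58e-05 and 7.96e-06), and in Ahr-/- BMMs -4.01 ± 0.20, -2.84 ± 0.30 and -5.26 ± 0.69 (edgeR adjusted p = 2.07e-24, 8.25e-12 and 4.4e-09). Dusp4 and Dusp6 had a higher response at 20 h in both, by 1.32 ± 0.24 and 1.18 ± 0.25 in Ahr+/+ (edgeR adjusted p = 6.32e-06 and 6.74e-05) and by 1.23 ± 0.24 and 1.43 ± 0.25 in Ahr-/- BMMs (edgeR adjusted p = 2.47e-05 and 3.04e-06). For Dusp8 the response was higher in Ahr+/+ BMMs by 1.60 ± 0.45 (edgeR adjusted p = 0.00184), which was 1.32 with an adjusted p of 0.0138 without unactivated library 1 at 3 h. For Dusp1 in Ahr-/- BMMs the difference was -1.01 ± 0.34 (edgeR adjusted p = 0.00957), a call that 12 of the 16 fits with 1 library removed did not make, namely all but those without activated library 3 at 20 h, activated library 3 or 4 at 3 h or unactivated library 2 at 3 h, with adjusted p from 0.0102 to 0.0255. For Dusp16 it was 0.60 ± 0.16 (edgeR adjusted p = 0.00163), and without activated library 1 or 2 at 3 h the call was lost (0.53 and 0.51, adjusted p = 0.0102 and 0.0128), as it was in a fit of the 4 groups alone (0.55, adjusted p = 0.0373). The 12 activated Ahr-/- libraries at 20 h have another library identifier prefix than all 12 at 3 h, so that time and prefix cannot be told apart among the activated libraries of that genotype.

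Set directly against each other, activated cells at 20 h and 3 h differed in 7 of the 9 transcripts in Ahr+/+ BMMs (4 higher at 20 h, 3 lower), against 59.5% of all genes tested (33.0% higher, 26.4% lower). The number was 6 in Ahr-/- BMMs (2 higher, 4 lower), against 56.0% of all genes tested (31.7% higher, 24.3% lower). Dusp6 was 2.105 and 2.74 times higher at 20 h, and Dusp5 2.23 and 6.89 times lower (edgeR adjusted p = 9.29e-07, 7.6e-10, 2.61e-06 and 1.62e-15). Dusp1 was 2.61 times lower at 20 h in Ahr-/- BMMs (log2 -1.38 ± 0.24, edgeR adjusted p = 1.83e-06), where it did not pass the test in Ahr+/+ BMMs. Dusp8 rose between the times in Ahr+/+ BMMs (log2 1.47 ± 0.30, edgeR adjusted p = 2.53e-05) and stood at -0.13 ± 0.28 in Ahr-/- BMMs (edgeR adjusted p = 0.698). Dusp4 was higher at 20 h by 0.68 ± 0.17 in Ahr+/+ BMMs (edgeR adjusted p = 0.000442), which was 0.46 with an adjusted p of 0.0239 without library 2 at 3 h. The Ahr-/- difference of Dusp4, 0.50 ± 0.17 (edgeR adjusted p = 0.00805) was lost without library 3 or 4 at 20 h or any 1 library at 3 h, at 0.36 to 0.49 with adjusted p from 0.0211 to 0.0708. With all libraries kept it was also lost by DESeq2, with RLE scaling, in a fit of the 2 groups alone and with the library identifier prefix in the model (adjusted p = 0.0346, 0.0313, 0.0378 and 0.0189). Dusp10 was higher at 20 h in Ahr+/+ BMMs (log2 0.90 ± 0.26, edgeR adjusted p = 0.00167), a call that was not made without library 4 at 20 h or library 2, 3 or 4 at 3 h, at 0.65 to 0.82 with adjusted p from 0.0113 to 0.0352.

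Without hk S.E., time alone lowered 2 of the 9 in each genotype, beside 6.07% of all genes tested (3.31% higher, 2.77% lower) in Ahr+/+ and 6.98% of all genes tested (3.52% higher, 3.46% lower) in Ahr-/- BMMs. Dusp4 went from 17.5, 17.01, 21.2 and 20.8 CPM at 3 h to 12.7, 10.7, 13.8 and 12.1 CPM at 20 h in Ahr+/+ BMMs, and Dusp16 from 13.1, 13.1, 12.3 and 14.5 to 8.75, 9.87, 9.97 and 10.3 CPM. Both fell without overlap, by 0.64 and 0.44 on the log2 scale (edgeR adjusted p = 0.00975 and 0.00871). Without AhR they fell by 0.72 and 0.55 (edgeR adjusted p = 0.00293 and 0.000989). Leaving out any 1 of the 8 libraries removed both calls in Ahr+/+ BMMs, with adjusted p from 0.0103 to 0.0458 for Dusp4 and 0.0112 to 0.0402 for Dusp16, and with the library identifier prefix in the model neither was called in either genotype. A fit of the 2 groups alone called neither in Ahr-/- BMMs (adjusted p = 0.0244 and 0.144) but called a fall of Dusp1 in Ahr+/+ BMMs (log2 -0.42, adjusted p = 0.00522), and without the filter on low counts neither was called in Ahr+/+ BMMs (adjusted p = 0.0143 and 0.0246). In Ahr-/- BMMs Dusp4 was not called without library 1 or 2 at 20 h or library 4 at 3 h (log2 -0.71 to -0.64, adjusted p from 0.0128 to 0.0208), nor Dusp16 without library 2 at 20 h (-0.42, adjusted p = 0.0132) or library 4 at 3 h (-0.48, adjusted p = 0.0105).

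The comparison of genotypes asks what loss of AhR does to these transcripts without added ligand. In unactivated cells none of the 9 was called at 3 h or 20 h, with 2 and 3 at an unadjusted p below 0.05 (as 9.99% and 12.5% of all genes) and 1.21% and 0.702% of all genes called. After 3 h of hk S.E. none was called either, 3 having an unadjusted p below 0.05 (as 19.1% of all genes), with 2.83% of all genes called. After 20 h of hk S.E., Dusp1, Dusp5 and Dusp14 were lower in Ahr-/- BMMs, 3 of the 9, where 12.5% of all genes tested (5.06% higher, 7.39% lower) were called. Dusp14 was kept for testing there only through its counts in other groups. By DESeq2 the number called was also 0, 0, 0 and 3.

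Among the transcripts that missed the threshold, Dusp5 already stood lower in unactivated Ahr-/- BMMs at 20 h, where the libraries held 17.8, 15.6, 17.6 and 14.2 CPM against 23.4, 23.8, 24.5 and 21.9 CPM in Ahr+/+ BMMs. The groups did not overlap, but the log2 difference of -0.52 ± 0.19 had an edgeR adjusted p of 0.167. Dusp4 and Dusp16 differed there by -0.37 ± 0.18 and -0.26 ± 0.12 (edgeR adjusted p = 0.361 and 0.33), and Dusp6 and Dusp5 at 3 h by -0.41 ± 0.17 and -0.39 ± 0.19 (edgeR adjusted p = 0.315 and 0.473). Dusp1 had 95% intervals of -0.36 to 0.60 and -0.33 to 0.64 in unactivated cells at 3 h and 20 h. After 3 h of hk S.E. the larger values were those of Dusp8, Dusp4 and Dusp2, higher in Ahr-/- BMMs by 0.82 ± 0.32, 0.36 ± 0.17 and 0.25 ± 0.12 on the log2 scale (edgeR adjusted p = 0.12, 0.249 and 0.222), and Dusp1 stood at -0.27 ± 0.24 (edgeR adjusted p = 0.597).

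Dusp1 at 20 h of activation was 149 ± 36.9 CPM in Ahr+/+ and 48.3 ± 10.1 CPM in Ahr-/- BMMs, 3.08-fold lower (log2 -1.62 ± 0.24, edgeR adjusted p = 1.56e-06). The highest Ahr-/- library, at 62.4 CPM, lay below the lowest Ahr+/+ library, at 109 CPM. Dusp5 was 3.61 ± 0.638 CPM against 1.02 ± 0.285 CPM, 3.63-fold lower and equally without overlap (log2 -1.86 ± 0.23, edgeR adjusted p = 3e-08). With any 1 of the 8 libraries left out both stayed called, at -1.77 to -1.50 for Dusp1 and -1.99 to -1.74 for Dusp5. The response to hk S.E. at 20 h differed between the genotypes for these 2 of the 9, by -1.78 ± 0.34 for Dusp1 and -1.34 ± 0.30 for Dusp5 on the log2 scale (edgeR adjusted p = 0.000299 and 0.00184), with 4.41% of all genes tested (2.08% higher, 2.33% lower) called. Dusp1 increased with activation in Ahr+/+ BMMs and did not pass the test in Ahr-/- BMMs, whereas Dusp5 fell in both and further in Ahr-/- BMMs. For Dusp16 the difference in response was 0.54 ± 0.16 (edgeR adjusted p = 0.025), which passed without activated Ahr+/+ library 2 or unactivated Ahr-/- library 3 or 4 (0.64 to 0.65, adjusted p from 0.00902 to 0.00997). At 3 h the same test called 0 of the 9, with 2 at an unadjusted p below 0.05 (as 5.96% of all genes) and 0.0138% of all genes called, and 0 of the 9 by DESeq2.

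The ligand groups are separate libraries, and in them as in the DMSO groups all Ahr-/- libraries at 20 h carry one library identifier prefix and all activated Ahr+/+ libraries another. Over the activated libraries at 20 h with DMSO, BaP or I3C, those with DMSO described above included, Dusp1 lay at 38.4 to 71.5 CPM in 12 Ahr-/- libraries (median 48.8) and at 109 to 269 CPM in 12 Ahr+/+ libraries (median 175). Dusp5 lay at 0.736 to 1.63 CPM (median 0.962) and at 2.94 to 4.83 CPM (median 3.38). Dusp1 and Dusp5 were the 2 of the 9 whose 12 and 12 libraries did not overlap, as in 9.22% of all genes, and at 3 h the number was 0 of the 9, against 2.44%. Libraries of different exposures may come from the same mice, so that 12 libraries are not 12 animals.

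For Dusp14 the activated libraries at 20 h had 3, 6, 6 and 13 counts in Ahr+/+ and 1, 1, 1 and 3 counts in Ahr-/- BMMs. The fitted log2 difference was -2.23 ± 0.61 (edgeR adjusted p = 0.00534), and the ratio of summed counts scaled to library size, Ahr-/- over Ahr+/+, was 0.196 with an exact 95% Poisson interval of 0.0663 to 0.482. The call was not made in 6 of the 8 fits with 1 library removed, namely without any 1 Ahr-/- library or without Ahr+/+ library 2 or 4, with adjusted p from 0.0118 to 0.031, and it was also lost without the filter on low counts (adjusted p = 0.0109). A fit of the 2 activated groups alone gave no value for Dusp14, which did not pass the filter on low counts there. Dusp14 was thus tested in this comparison through its counts in other groups. The test of a different response called no Dusp14 difference (edgeR adjusted p = 0.113). Dusp8 and Dusp10 stood lower in the activated Ahr-/- libraries with DMSO at 20 h, at log2 differences of -0.79 ± 0.27 and -0.64 ± 0.24, and missed the threshold (edgeR adjusted p = 0.029 and 0.0458). Their 4 and 4 libraries did not overlap, as for 5 of the 9 transcripts. Over the 12 and 12 activated libraries both overlapped. The highest Ahr-/- and lowest Ahr+/+ values were 2.31 and 2.15 CPM for Dusp8 and 3.25 and 2.80 CPM for Dusp10. With the library identifier prefix in the model the Dusp8 difference was -0.01 (edgeR unadjusted p = 0.997). No SE is given for it, since an SE derived from F is not reliable at so small a difference. Dusp2, Dusp4 and Dusp6 had 95% intervals of -0.23 to 0.26, -0.16 to 0.51 and -0.22 to 0.47 for the same log2 difference. Dusp16 was at 163 ± 7.65 CPM in Ahr-/- and 135 ± 19.4 CPM in Ahr+/+ BMMs (log2 0.28 ± 0.11, edgeR adjusted p = 0.0658).

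**Figure D4:**
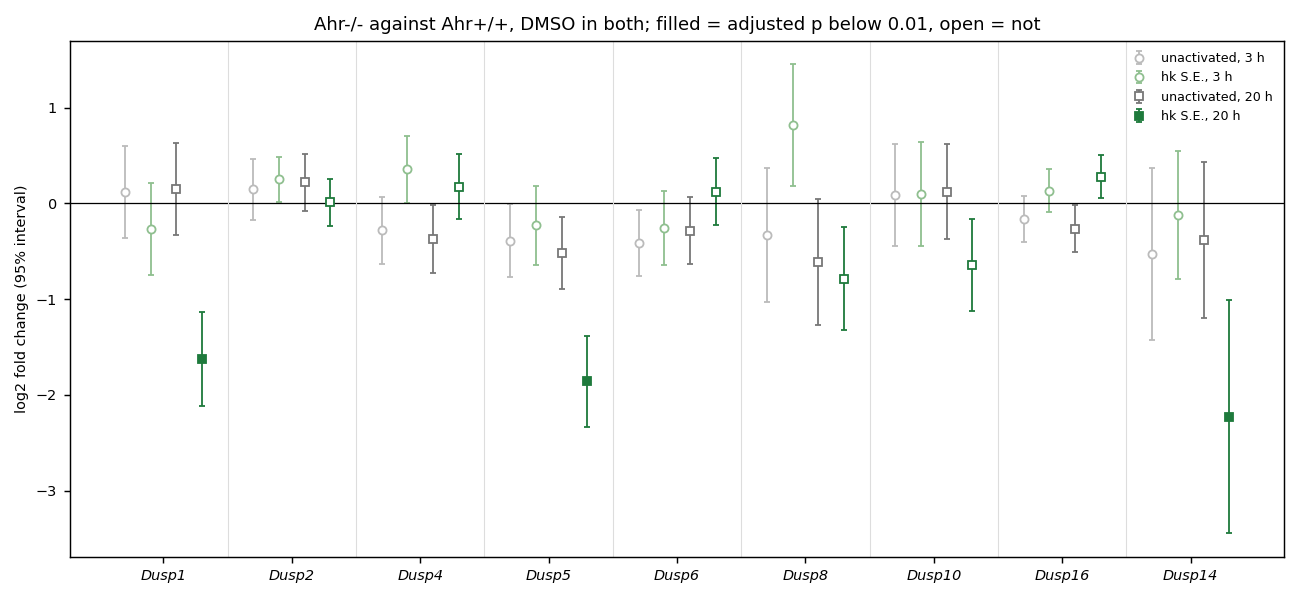
Log2 fold change of Ahr-/- against Ahr+/+ BMMs for the 9 transcripts, with 95% intervals, unactivated and after hk S.E. at 3 h and 20 h, all with DMSO. Filled symbols, which passed an adjusted p below 0.01, are the 20 h activated values of Dusp1 at -1.62, Dusp5 at -1.86 and Dusp14 at -2.23.

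In this comparison the library identifiers of all 4 Ahr+/+ libraries share one prefix and those of all 4 Ahr-/- libraries another, so that genotype and prefix cannot be told apart within it. A model with the prefix as a term, which draws on the groups where prefixes are mixed, gave log2 differences of -1.68 ± 0.32 for Dusp1 and -2.21 ± 0.28 for Dusp5 (edgeR adjusted p = 0.000436 and 1.97e-07), while Dusp14 at -1.88 ± 0.74 was no longer called (edgeR adjusted p = 0.109). Over all genes that model called 493, against 1811 without it. The difference in response was -1.79 ± 0.36 for Dusp1 and -1.45 ± 0.30 for Dusp5 with the prefix in the model (edgeR adjusted p = 0.000869 and 0.00109). The summed level of 4 dendritic cell markers moved with the genotype at 20 h of activation, at 20.3 to 39.6 CPM in Ahr+/+ and 3.82 to 8.54 CPM in Ahr-/- libraries. Most of the Ahr+/+ sum was Ccr7, a chemokine receptor, since Flt3 and Zbtb46 reached at most 1.20 and 1.23 CPM in any library and Cd209a was at 0 in 63 of the 64. The macrophage list summed to 18829 to 22840 and 20145 to 32147 CPM in the same groups. The part of either in the results was not tested.

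The ligand comparisons ask whether AhR ligands change these transcripts in activated cells. Without the library number in the fit, none of the 9 was called in any of the 8 comparisons of BaP or I3C with DMSO by edgeR. DESeq2 called 0 as well. Of the 72 tests 3 had an unadjusted p below 0.05, and the lowest adjusted p was 0.146. With the library number as a block, Dusp2 in Ahr+/+ BMMs at 20 h passed after I3C and after BaP (edgeR adjusted p = 0.0013 and 0.00434). Same-numbered libraries were taken as pairs there for I3C but not for BaP. Among all genes, BaP called 0.0482% at 3 h and 0.234% at 20 h in Ahr+/+ BMMs, and I3C called 0.131% and 0.509%. In Ahr-/- BMMs the shares were 0.0275% and 0.0138% for BaP and 0.0206% and 0.206% for I3C. The ligand response differed between genotypes for 0 of the 9 in all 4 tests by edgeR and by DESeq2, where 1 value, Dusp10 for BaP at 3 h, had an unadjusted p below 0.05 (as 2.56% of all genes), with at most 0.0138% of all genes called.

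The 3 tests with an unadjusted p below 0.05 were in Ahr+/+ BMMs at 20 h, 2 for BaP and 1 for I3C, where 10.4% and 5.72% of all genes had such a p. Dusp2 held 16.6, 20.5, 19.7 and 17.9 CPM in libraries 1 to 4 after DMSO, 12.6, 15.7, 15.5 and 14.8 CPM after BaP and 11.3, 14.8, 16.2 and 14.3 CPM after I3C. Each ligand library lay below the DMSO library of the same number, and below all 4 DMSO libraries. The log2 differences were -0.35 ± 0.12 after 1 µM BaP and -0.40 ± 0.12 after 10 µM I3C (unadjusted p = 0.00599 and 0.00207, edgeR adjusted p = 0.207 and 0.146). With the library number as a block, the I3C difference was -0.40 ± 0.08 and passed (edgeR adjusted p = 0.0013). The deviations of same-numbered libraries correlated at 0.202 to 0.255 in this comparison, the only one in Ahr+/+ BMMs with every pair above 0.1. The block, however, was fitted as an effect of each number over all groups of a genotype, so this correlation does not bear out the whole block. Over all genes the fit with the block called 147 for I3C, against 74 without it. In Ahr-/- BMMs at 20 h Dusp2 stood at 18.9 ± 1.51, 18.4 ± 0.273 and 16.5 ± 1.90 CPM after DMSO, BaP and I3C. There, too, the I3C library lay below the DMSO library of the same number in 4 of 4 pairs (0.825 to 0.929 times). The BaP library did so in 3 of 4 (0.903 to 1.11 times). The difference of the ligand response between genotypes was 0.32 ± 0.17 for BaP and 0.20 ± 0.17 for I3C on the log2 scale (edgeR adjusted p = 0.984 and 0.987).

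Dusp16 in Ahr+/+ BMMs at 20 h held 117, 162, 126 and 134 CPM after DMSO and 87.2, 105, 128 and 117 CPM after BaP, with overlapping libraries (log2 -0.30 ± 0.11, unadjusted p = 0.00908, edgeR adjusted p = 0.241). Dusp1 held 235, 269, 144 and 175 CPM after BaP, above the DMSO library of the same number in 4 of 4 pairs by 1.27 to 1.54 times, while libraries 1 and 2 stood above 3 and 4 in both groups. That difference, 0.47 ± 0.24 on the log2 scale, was not called (edgeR adjusted p = 0.495) and its 95% interval was -0.01 to 0.95. Same-numbered libraries were not taken as pairs in that comparison. In Ahr-/- BMMs the matching value was -0.03 ± 0.24, with 3 of 4 pairs higher. Dusp1 was also higher in 4 of 4 Ahr-/- pairs after BaP at 3 h (1.004 to 1.13 times). After I3C it was so at 3 h and at 20 h (1.01 to 1.10 and 1.11 to 1.17 times). BaP and I3C were given at different doses, so their values are set side by side and not compared.

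**Figure D5:**
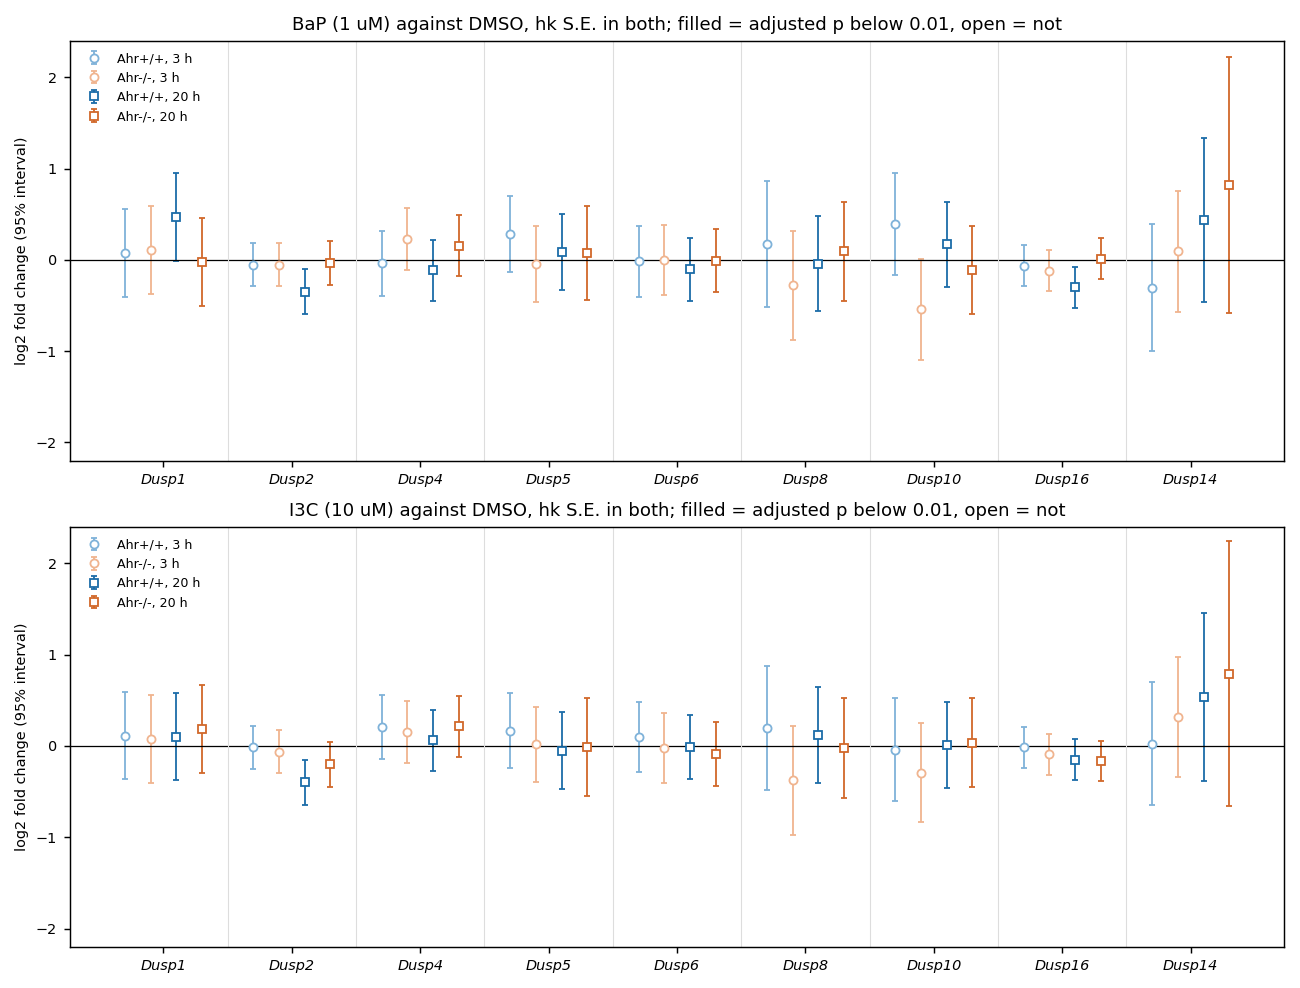
Log2 fold change of BaP at 1 µM (top) and I3C at 10 µM (bottom) against DMSO in activated BMMs for the 9 transcripts, with 95% intervals, in Ahr+/+ (blue) and Ahr-/- (orange) at 3 h (pale circles) and 20 h (dark squares). All symbols are open, as no value passed an adjusted p below 0.01 in the fit without the library number as a block. The widest intervals are those of Dusp14.

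Over all 16 groups the range between the highest and the lowest mean was widest for Dusp2, 128-fold from unactivated Ahr+/+ to activated Ahr-/- BMMs at 3 h, and narrowest for Dusp10, 2.89-fold. Dusp16 spanned 20.6-fold, Dusp5 24.0-fold, Dusp8 9.29-fold, Dusp4 5.84-fold, Dusp1 4.34-fold and Dusp6 3.42-fold. No fold is given for Dusp14, whose lowest group held 1 to 3 counts per library. With the groups ranked by mean, 13 to 15 of the 15 neighbouring pairs overlapped in their libraries for each transcript, so that most neighbours in the order were not apart. The 2 breaks in Dusp2 separated the 6 activated groups at 3 h, the 6 activated groups at 20 h and the 4 unactivated groups.

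Likeness to other genes was measured by Pearson's r of log2 CPM over the 64 libraries, as a description, since libraries share groups and every gene that answers to hk S.E. is alike in this sense. The genes nearest to Dusp2 were Myd88 (0.994), the adaptor of Toll-like receptors, Mapkapk2 (0.993), a kinase switched on by p38, and Nlrp3 (0.993), an inflammasome sensor. Nearest to Dusp16 were Il1a (0.992), which encodes interleukin-1 alpha, Hcar2 (0.991) and Jak2 (0.991), a kinase of cytokine receptors. Nearest to Dusp1 were Bcl6 (0.928), a transcriptional repressor, Ptk2b (0.911) and Npc2 (0.898), a lysosomal cholesterol carrier. Dusp5 was nearest to Entpd1 (0.966), an ectonucleotidase, Rcbtb2 (0.958) and Ccnd1 (0.957), a cyclin. Dusp6 was nearest to Ptpn7 (0.939), itself a tyrosine phosphatase of MAP kinases, Zmynd8 (0.938) and AI467606 (0.934). Dusp14 was nearest to Zfp36 (0.940), which promotes decay of cytokine mRNAs, Irf5 (0.935), a transcription factor of inflammatory macrophages, and Tmem171 (0.934). Dusp4 was nearest to Nploc4 (0.953), Cry1 (0.936) and Slc7a5 (0.933), Dusp8 to Tmem248 (0.908), St3gal5 (0.898) and Lsm12 (0.895), and Dusp10 to Ptgs2os (0.807), Gm8463 (0.785) and Ccdc173 (0.775). Within the family the r ranged from -0.872 between Dusp2 and Dusp6 to 0.852 between Dusp4 and Dusp16.

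The other genes of the pathway are given by lists, with up to 2 of the largest rises and falls named, for hk S.E. in Ahr+/+ BMMs at 3 h first (log2 fold changes ± SE), where 24.2% of all genes tested rose and 32.3% fell (median -0.10). Of the remaining Dusp genes 2 rose and 6 fell of 12 tested (median -0.63), with Dusp28 at 1.16 ± 0.18, Dusp11 at 0.96 ± 0.11, Dusp18 at -3.08 ± 0.29 and Dusp7, a cytoplasmic ERK phosphatase, at -1.89 ± 0.16. Of the MAP kinases 4 rose and 2 fell of 9 (median 0.15), with Mapk11, a p38 isoform, at 1.56 ± 0.19, Mapk6 at 1.13 ± 0.12, Mapk7, which is ERK5, at -1.75 ± 0.17 and Nlk at -1.46 ± 0.14. Of the upstream kinases 7 rose and 12 fell of 26 (median -0.30), with Map3k8, the kinase that links Toll-like receptors to ERK, at 3.38 ± 0.11, Map2k4, a kinase of JNK, at 1.58 ± 0.12, Map3k9 at -3.82 ± 0.22 and Map3k12 at -3.23 ± 0.28. The list thus moved in both directions. Of the kinases activated by MAP kinases 5 rose and 3 fell of 10 (median 0.40), with Mapkapk2 at 3.23 ± 0.10, Rps6ka5 at 1.20 ± 0.19, Mknk2 at -3.50 ± 0.12 and Rps6ka1 at -1.32 ± 0.09. Of the Sprouty and Spred inhibitors of the ERK pathway 2 rose and 3 fell of 5 (median -0.54), with Spry1 at 2.46 ± 0.72, Spred1 at 2.36 ± 0.36, Spred3 at -1.69 ± 0.31 and Spred2 at -0.79 ± 0.11. Spry1 was hardly counted, at 0.296 ± 0.164 CPM activated against 0.0550 ± 0.0311 CPM unactivated. Of the other phosphatases of MAP kinases 2 rose and 2 fell of 4 (median -0.30), with Ppm1b at 1.54 ± 0.10, Ppm1a at 0.50 ± 0.07, Ptpn7 at -1.43 ± 0.10 and Ppm1d at -1.10 ± 0.12. The highest edgeR adjusted p among these named genes was 0.00238, for Spry1.

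At 20 h in Ahr+/+ BMMs, where 29.9% of all genes tested rose and 28.7% fell (median 0.00), 3 rose and 5 fell of 12 remaining Dusp genes (median -0.23), with Dusp28 at 1.72 ± 0.17, Dusp12 at 0.54 ± 0.09, Dusp7 at -1.74 ± 0.16 and Dusp9 at -1.55 ± 0.20. Of the MAP kinases 3 rose and 3 fell of 9 (median 0.08), and Mapk7 had turned from its fall to a rise of 1.42 ± 0.16 and Mapk11 from its rise to -0.90 ± 0.19, with Mapk8 at 0.65 ± 0.23 and Mapk14 at -0.55 ± 0.07. Of the upstream kinases 11 rose and 9 fell of 26 (median 0.17), with Map3k5, a stress-responsive kinase upstream of JNK and p38, at 1.72 ± 0.11, Map3k13 at 1.67 ± 0.54, Map3k9 at -3.56 ± 0.20 and Map3k12 at -2.77 ± 0.25. Map3k13 was hardly counted, at 0.276 ± 0.102 CPM activated against 0.0764 ± 0.0338 CPM unactivated. Of the kinases activated by MAP kinases 3 rose and 5 fell of 10 (median -0.35), with Mapkapk2 at 1.33 ± 0.10, Mapkapk5 at 1.11 ± 0.12, Rps6ka5 at -1.37 ± 0.20 and Mknk2 at -0.90 ± 0.11. Of the Sprouty and Spred inhibitors 2 rose and 1 fell of 5 (median 0.01), with Spry1 at 4.33 ± 0.60, Spred2 at 0.83 ± 0.11 and Spry2 at -1.04 ± 0.16. Spry1 was again low, at 0.482 ± 0.0737 CPM activated against 0.0449 ± 0.0521 CPM unactivated. Of the other phosphatases 2 rose and 1 fell of 4 (median 0.15), with Ppm1b at 0.61 ± 0.09, Ppm1a at 0.40 ± 0.07 and Ptpn7 at -0.42 ± 0.09. The highest edgeR adjusted p among these was 0.00996, for Mapk8.

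In the comparison of genotypes after 20 h of hk S.E., in which Dusp1, Dusp5 and Dusp14 differed and 5.06% of all genes tested were higher and 7.39% lower, 1 of the 12 remaining Dusp genes was lower and 2 of the 9 MAP kinases were higher in Ahr-/- BMMs. Of the 26 upstream kinases 1 was higher and 2 were lower, 1 of the 10 activated kinases was lower, and none of the 5 inhibitors or the 4 other phosphatases was called. No gene of the 6 lists was called after BaP or I3C in either genotype at either time.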

How the data were processed

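Sequencing reads of 64 mRNA libraries (stranded TruSeq kit, polyA selection) had been aligned by the authors with HISAT2 2.1.0 to the mouse genome mm10 and counted per gene with HTSeq 0.9.1 on GENCODE M22, and the deposited values are raw counts. Deposited log2 values of variance-stabilized expression were not used. Of the entries in each library 74.9 to 80.8% were on genes, and the entries without a gene were left out. Gene IDs were matched to symbols through GENCODE M21 (55094 of 55487 with version, 300 without version, 93 unmatched). No exonic base of the 9 genes is shared with another gene of the same strand, although the annotated Dusp1 locus encloses 2 other genes.

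Counts were tested with edgeR 4.0.16 (R 4.3.3, limma 3.58.1) by quasi-likelihood F tests on 16 group means over all 64 libraries, with TMM scaling, filterByExpr at a minimum count of 10 and Benjamini-Hochberg adjustment over 14537 genes, at a threshold of 0.01. SE was derived from the log2 fold change and F, with 48 residual degrees of freedom. CPM per kb was taken over the merged exons. Members and gene lists were chosen with earlier results of these data known. Named genes were all 9 members, the 3 genes most correlated with each over the 64 libraries, and for each pathway list up to 2 called genes with the largest rise and up to 2 with the largest fall. No pair of libraries of a group agreed within sampling noise (chi-square per degree of freedom 3.901 to 154.2 over 96 pairs). In most Ahr-/- groups libraries 1 and 2 were closer to each other than to 3 and 4, and 3 and 4 likewise. With DMSO and hk S.E. at 20 h the values were 15.25 and 19.42 within these pairs and 117.6 to 140.8 across them. Unactivated Ahr-/- BMMs at 3 h were the exception, with 91.42 between libraries 1 and 2. The tests take the 4 libraries of a group as independent.

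Library numbers were taken as pairing 2 groups where the deviations of every same-numbered pair correlated above 0.1, which held for 7 of 16 comparisons: all 4 ligand comparisons in Ahr-/- BMMs, I3C in Ahr+/+ BMMs at 20 h, and in Ahr-/- BMMs activation at 20 h and activated 20 h against 3 h. Alternatives were DESeq2 1.42.0, RLE scaling, no filter, the prefix of the library identifier as a covariate, the library number as a block, fits of the compared groups alone, and leaving out each library in turn. The block was an effect of each library number within a genotype, shared by all groups of that genotype. Promoter windows came from RefSeq on GRCm38.p6.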

Additional observations from a re-analysis of the deposited data

Results flagged for a closer look

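In 9 of the 144 groups of 4 libraries, 1 library stood far from the other 3 by Dixon's test at the 95% level, and chance alone gives about 1 in 20 groups. Dusp1 was lowest in unactivated Ahr+/+ library 1 at 3 h, at 58.6 CPM against 72.3 to 74.6 CPM in the others. Dusp6 was highest in activated DMSO Ahr-/- library 2 at 20 h, at 30.7 CPM against 19.3 to 20.2 CPM, and the same library was lowest for Dusp8, at 1.01 CPM against 2.02 to 2.097 CPM. Dusp8 was also highest in BaP Ahr-/- library 2 at 3 h, at 2.16 CPM against 1.42 to 1.51 CPM, and lowest in I3C Ahr+/+ library 3 at 20 h, at 2.71 CPM against 3.55 to 3.73 CPM. Dusp16 was highest in library 2 of activated Ahr+/+ BMMs at 3 h, both after DMSO (168 CPM against 134 to 138 CPM) and after I3C (164 CPM against 133 to 137 CPM). Dusp14 was lowest in I3C Ahr-/- library 1 at 3 h, at 1.70 CPM against 2.25 to 2.32 CPM, and highest in unactivated Ahr+/+ library 1 at 20 h, at 0.558 CPM against 0.283 to 0.300 CPM.

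The response to hk S.E. at 20 h differed between genotypes for Dusp1 by -1.78 and for Dusp5 by -1.34 on the log2 scale, Ahr-/- less Ahr+/+, by the test of the difference itself. Between 20 h and 3 h the response differed in Ahr+/+ BMMs for Dusp2 (-3.70), Dusp14 (-3.02), Dusp5 (-1.34), Dusp6 (1.18), Dusp4 (1.32) and Dusp8 (1.60). In Ahr-/- BMMs it differed for Dusp14 (-5.26), Dusp2 (-4.01), Dusp5 (-2.84), Dusp1 (-1.01), Dusp16 (0.60), Dusp4 (1.23) and Dusp6 (1.43).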

How the results depend on the processing

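Of 252 tests of the 9 transcripts, most were not called as reported. In 238 the status, called or not, stayed the same under DESeq2, RLE scaling, no filter on low counts, the identifier prefix as a covariate, the library number as a block and fits of the compared groups alone, the last 2 where they gave a value. A test without a value in a fit counted as unchanged. Fits of the groups alone kept the status of 230 tests, gained 3 calls, lost 5 and gave no value for the rest. No difference that was called, as reported or under an alternative, changed direction. Some that were not called did, as between genotypes after 20 h of hk S.E. for Dusp2 (0.01, but -0.01 by DESeq2 and with RLE scaling and -0.19 with the prefix) and Dusp6 (0.12, but -0.11 with the prefix). The 2 transcripts called between 20 h and 3 h in unactivated Ahr+/+ BMMs became 0 without the filter and 0 with the prefix as a covariate, and the 2 in Ahr-/- BMMs became 0 with the prefix and 0 in the groups alone. Leaving out each library gave 0 to 0 and 0 to 2 calls there. In all it gave 2592 values, most of them from tests not called as reported. Of the 2592, 2530 kept their status, 58 lost a call and 4 gained a call. A call could be lost only where there was one, so 2592 is not the base of the 58. The Dusp2 level in BaP Ahr-/- BMMs at 20 h was 17.9 CPM under RLE scaling against 18.4 CPM. For most of these changes the cause was not tested, but fewer libraries or residual degrees of freedom enter the fits of the groups alone and those that leave out a library.

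With the replicate number as a block, 1 of the 9 transcripts was called for BaP and 1 for I3C in Ahr+/+ BMMs at 20 h, against 0 and 0, both Dusp2 (-0.35 and -0.40, edgeR adjusted p = 0.00434 and 0.0013). Over all genes the block called 271 for BaP and 147 for I3C in these comparisons, against 34 and 74 without it. For BaP the same-numbered libraries correlated at 0.0988 to 0.23, just short of the limit set for every pair, and the pairing was not used. It was not used either for Dusp4 after 3 h of hk S.E. in Ahr+/+ BMMs (0.42, edgeR adjusted p = 0.00136) and the Dusp16 response between genotypes at 20 h (0.55, edgeR adjusted p = 0.00225). The block changed no other call. Dusp4 after 3 h of hk S.E. in Ahr+/+ BMMs also passed under DESeq2, RLE scaling and in the groups alone (adjusted p = 0.00772, 0.00811 and 0.00827). Over all genes, the number called moved by more than 1.5 times in 9 of 28 comparisons under DESeq2 (more in 9), 15 in the groups alone (fewer in 14), 6 with the prefix (fewer in 6), 3 without the filter (fewer in 3) and 13 of 24 with the block (more in 13). Ligand effects on Dusp8 and Dusp14, at 1 to 212 and 1 to 89 counts per library, had the least precision.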

Other observations

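Libraries of the same number moved together in some groups, which the labels do not explain. In activated Ahr-/- BMMs at 3 h, libraries 1 to 4 held 165, 165, 89.2 and 83.9 CPM of Dusp1 after DMSO, 182, 187, 89.5 and 84.4 CPM after BaP and 169.8, 178, 98.4 and 84.6 CPM after I3C. Libraries 1 and 2 thus stood above libraries 3 and 4 in all 3 exposures. Dusp6 had the same split, with 9.72, 10.6, 5.87 and 6.65 CPM after DMSO and 11.6, 9.83, 5.86 and 5.75 CPM after BaP. Dusp5 had it in the unactivated cultures of that genotype and time, at 20.5, 20.6, 11.6 and 10.2 CPM. In activated Ahr+/+ BMMs at 20 h, libraries 1 to 4 held 185, 175, 109 and 126 CPM of Dusp1 after DMSO, 235, 269, 144 and 175 CPM after BaP and 188, 193, 120.4 and 135 CPM after I3C, again with libraries 1 and 2 on top. Over all genes, too, libraries 1 and 2 stood apart from libraries 3 and 4 in most Ahr-/- groups. What the numbers stand for was not tested.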
